A study of Homo sapiens with 6 samples.

Results

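The genes described here are the 4 receptors of the ERBB family (EGFR, ERBB2, ERBB3 and ERBB4), 3 neuregulins (NRG1, NRG2 and NRG4) and the receptor inhibitor ERRFI1, which make 8 of the 19775 genes named by a probe set of the arrays. They were represented by all 32 probe sets whose only gene in the platform annotation is one of these 8. RNA levels were read on 6 Affymetrix arrays, each with 1 sample of Flp-In T-REx 293, a HEK293 derivative in which a transgene can be inserted at a chosen locus; here that was an inducible GFP gene, left off in all samples. In 3 arrays, clones 1, 2 and 3 had received siRNAs against TET1, TET2 and TET3 together, and in the other 3 arrays the same clones had received a non-targeting siRNA pool; RNA was collected 96 h after siRNA in either case. TET enzymes oxidise the methyl group of methylated cytosine, and the question addressed is what their joint depletion does to transcripts.

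ERBB receptors are tyrosine kinases of the cell surface that pair with each other when an EGF-type ligand or a neuregulin binds. EGFR binds EGF-type ligands, and ERBB3 and ERBB4 bind neuregulins. ERBB2 has no known ligand of its own and serves as the preferred partner of the others. ERBB3 has a weak kinase but many docking sites for phosphoinositide 3-kinase. In kidney epithelium the family takes part in the growth of tubules and in salt handling. The genes were chosen by their signal differences between TET siRNA and control on these same arrays, so those differences are given as descriptions. They entered the fit over the whole array, but no p-value is given for them and nothing is read from whether a member passed.

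TET enzymes act on methylated cytosine in the CpG context, so the sequence before each transcription start was read for the dinucleotide CG, which is the same on both strands. Methylation itself was not measured. RefSeq sequences (GRCh38.p14) matched 6 of the 8 members, with 8 listed starts in all; ERBB3 and NRG1 had no entry. In the 250 bases before the start, the number of CG ran from 1 to 39, against a median of 11 over the 35116 windows of the table, 93.9% of which hold at least 1. ERRFI1 had 39 CG, a count that 2.65% of all windows reach, and ERBB2 had 23. The 3 windows printed here belong to the 2 receptors with a probe set that differed between clones and to the ligand with the fewest CG at its single listed start; CG is in capitals.
EGFR, chr7:55018767-55019016, plus strand: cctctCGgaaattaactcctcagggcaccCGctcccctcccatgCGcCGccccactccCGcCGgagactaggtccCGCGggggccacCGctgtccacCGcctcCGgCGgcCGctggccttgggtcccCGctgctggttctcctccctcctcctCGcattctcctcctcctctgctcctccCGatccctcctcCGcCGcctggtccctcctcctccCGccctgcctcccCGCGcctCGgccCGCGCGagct
ERBB4, chr2:212538803-212539052, minus strand: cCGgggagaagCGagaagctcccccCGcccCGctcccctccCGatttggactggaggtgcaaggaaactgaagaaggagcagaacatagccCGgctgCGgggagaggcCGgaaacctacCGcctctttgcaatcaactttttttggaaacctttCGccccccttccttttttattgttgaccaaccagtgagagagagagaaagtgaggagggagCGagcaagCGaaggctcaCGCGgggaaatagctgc
NRG4, chr15:76012425-76012674, minus strand: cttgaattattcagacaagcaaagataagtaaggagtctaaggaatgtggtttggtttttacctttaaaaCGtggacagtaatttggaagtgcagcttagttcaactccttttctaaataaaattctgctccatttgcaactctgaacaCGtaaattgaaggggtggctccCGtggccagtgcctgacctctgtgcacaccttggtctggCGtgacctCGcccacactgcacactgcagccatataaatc
The EGFR window holds 25 CG (21.6% of all windows hold at least as many), the ERBB4 window 14 (44.8%) and the NRG4 window 5 (65.7%). A second listed EGFR start had 1 CG. These counts describe the sequence alone.

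The knockdown itself was present in every clone. The brightest probe sets left 17.9% of the control signal for TET1, 46.8% for TET2 and 42.9% for TET3, and in none of them did the arrays of the 2 groups overlap. The limma fit with the clone as a block, run over all probe sets, gave TET1 an adjusted p of 0.000194, TET2 one of 0.0335 and TET3 one of 0.0196; without the block TET2 (0.327) and TET3 (0.1) did not pass. All 7 genes listed as markers of the HEK293 line, among them the keratins KRT8 and KRT18 and the neurofilament NEFL, were above the brightness limit of 117.2 used for the tests. Of 7 measured markers of other cell types 5 were below it and HBB and PECAM1 above it, with the leukocyte gene PTPRC at a geometric mean signal of 22.6. Summed over its probe sets, the list of other cell types ran from 1169 to 1282 under TET siRNA and from 1216 to 1350 in the control. The ratio of 3' to 5' signal, a measure of RNA integrity, was 1.05 to 1.07 under TET siRNA and 1.04 to 1.08 in the control for GAPDH, and 1.89 to 2.15 and 2.01 to 2.07 for ACTB.

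Values are MAS5 signals, a linear intensity scaled so that the trimmed mean is 1000 on each array; differences are log2 TET siRNA minus log2 control within a clone, averaged over 3 clones, and the number of arrays limits their precision. Tests were run on the brighter 50% of probe sets, those with a geometric mean signal of 117.2 or more. Of the 32 member probe sets, 12 were bright enough, for 6 genes: EGFR with 3 of its 9 probe sets, ERBB2 with 1 of 3, ERBB3 with 3 of 5, ERBB4 with 2 of 4, NRG2 with 2 of 3 and ERRFI1 with its only one. NRG1, with 6 probe sets, and NRG4, with 1, had none. The member just inside the limit was ERBB4 233498_at with a geometric mean of 135.5 and the one just outside was EGFR 211551_at with 105.0.

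ERBB3, the neuregulin receptor with the weak kinase, had the lowest level under TET siRNA relative to control among the tested member probe sets. At its brightest probe set, 226213_at, the signal was 252, 332 and 251 in clones 1, 2 and 3 under TET siRNA and 553, 716 and 686 in the same clones under control siRNA. Every knockdown array lay below every control array, and the highest knockdown value was that of clone 2, which also had the highest control value. The mean was 278 ± 46.6 under TET siRNA and 652 ± 86.7 under control siRNA (SD, n = 3 in both). The level was thus 2.35-fold lower (log2 difference -1.23, SE 0.16), with 45.6, 46.4 and 36.5% of the control signal left in clones 1, 2 and 3. In RNA from whole cultures, fewer cells with the transcript and less of it per cell cannot be told apart.

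The second ERBB3 probe set, 202454_s_at, had the same order with a smaller difference. Its signal was 226, 257 and 217 under TET siRNA and 328, 386 and 410 under control siRNA in clones 1, 2 and 3, again without overlap. The log2 difference was -0.68 (SE 0.19), and 68.8, 66.6 and 53.0% of the control signal was left. At both probe sets clone 3 had the lowest share of its control.

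The third tested ERBB3 probe set did not show the difference. At 1563253_s_at the signal was 292, 260 and 176 under TET siRNA and 209, 214 and 233 under control siRNA, so that clones 1 and 2 were higher and clone 3 lower, with a mean of 0.12 (SE 0.23). The platform annotation gives this probe set another source sequence than the first pair, and shares that sequence between it and 1563252_at, a dim probe set with signals of 10.7 to 17.2. The remaining dim one, 215638_at, had a log2 difference of -0.63 and was lower in clones 2 and 3 alone. Averaged over the 3 tested probe sets, which disagree, the log2 difference of ERBB3 was -0.60.

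**Figure D1:**
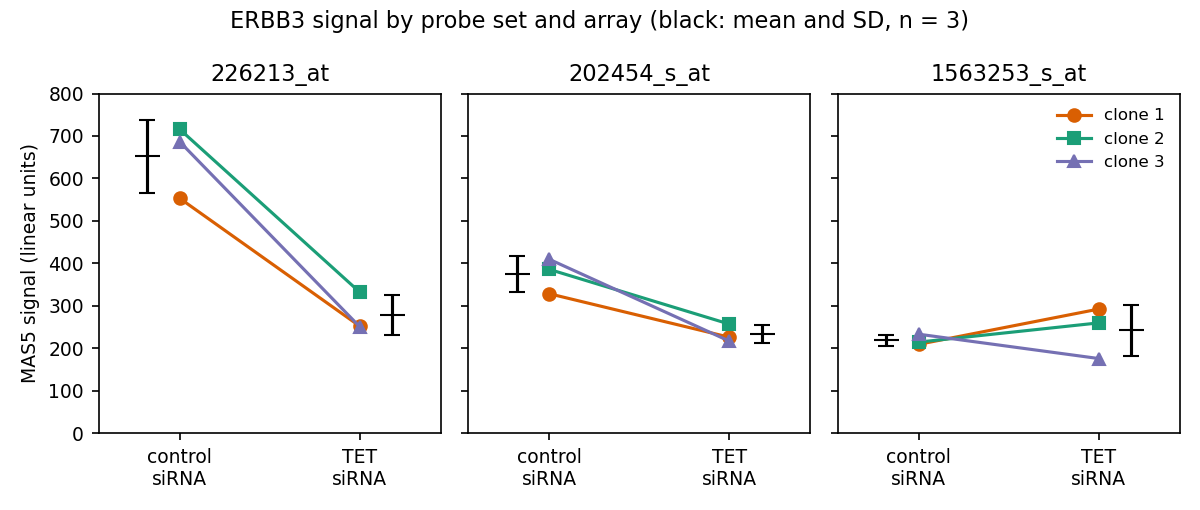
ERBB3 MAS5 signal (vertical axis, linear units from 0) at its 3 tested probe sets under control and TET siRNA; each line joins the 2 arrays of a clone, and black bars give the mean and SD over 3 arrays. At 226213_at all knockdown arrays (251 to 332) lie below all control arrays (553 to 716), at 202454_s_at the gap is narrower, and at 1563253_s_at the lines cross.

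In the limma fit with the clone as a block, 282 of 27307 tested probe sets (1.03%) had a Benjamini-Hochberg adjusted p under 0.05, 105 of them higher (0.385%) and 177 lower (0.648%). Among the members ERBB3 226213_at was the 1 of 12 called; since this contrast was in view when the members were selected, nothing is read from that count. Without the replicate block 4 probe sets were called over the whole array (0.0146%) and 0 among the members, and without limma's trend and robust steps the blocked fit called 0 over the whole array, with 3355 at an unadjusted p under 0.05. The blocked count was 108 without clone 1, 684 without clone 2 and 63 without clone 3. The log2 difference of 226213_at lay between -1.37 and -1.12 over 11 alternatives for the scaling, the pseudocount and the clone or array left out, and that of 202454_s_at between -0.77 and -0.56.

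EGFR, a receptor of EGF-type ligands, had a slightly lower mean log2 signal under TET siRNA at all 3 tested probe sets, with groups that overlapped at each. At 224999_at the signal was 361, 428 and 429 under TET siRNA and 398, 502 and 486 under control siRNA. Each clone was below its own control, at 90.6, 85.3 and 88.2%, for a log2 difference of -0.18 (SE 0.15). At 201984_s_at the signal was 279, 575 and 506 under TET siRNA and 360, 619 and 557 under control siRNA, a difference of -0.20 (SE 0.15) with the same sign in each clone. At 201983_s_at the difference was -0.18 (SE 0.23), and clone 2 was at 102% of its control. The 6 dim EGFR probe sets had mean differences of the other sign, from 0.08 to 1.49, with an SD over clones of up to 2.42 at 1565483_at.

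ERBB2, the receptor without a ligand, was measured by 1 tested probe set. The signal at 216836_s_at was 602, 859 and 593 under TET siRNA and 569, 583 and 746 under control siRNA. Clone 1 was at 106%, clone 2 at 147% and clone 3 at 79.5% of control, so the mean difference of 0.10 (SE 0.16) was smaller than the spread over clones (SD 0.45).

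ERBB4, the second neuregulin receptor, had a slightly higher mean log2 signal under TET siRNA at both tested probe sets. At 214053_at the signal was 549, 814 and 879 under TET siRNA and 479, 781 and 811 under control siRNA, a difference of 0.12 (SE 0.12) with the same sign in each clone. At 233498_at it was 0.14 (SE 0.29), with clone 2 lower than its control. The groups overlapped at both. With 1 array left out and no replicate block, 214053_at went down to -0.12 and 233498_at to -0.01, and EGFR 201984_s_at went up to 0.11. Those settings leave a clone in 1 group only, so differences between clones enter the value. With a whole clone left out, 214053_at lay between 0.09 and 0.16 and 233498_at between 0.04 and 0.30. EGFR 201984_s_at then lay between -0.25 and -0.12.

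ERRFI1 encodes a cytoplasmic adaptor that binds the EGFR kinase domain and blocks it. Its signal was 3247, 3192 and 3281 under TET siRNA and 3054, 3366 and 3008 under control siRNA, with a difference of 0.05 (SE 0.08). Clone 2 was at 94.8% of its control, and clones 1 and 3 were at 106 and 109%.

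**Figure D2:**
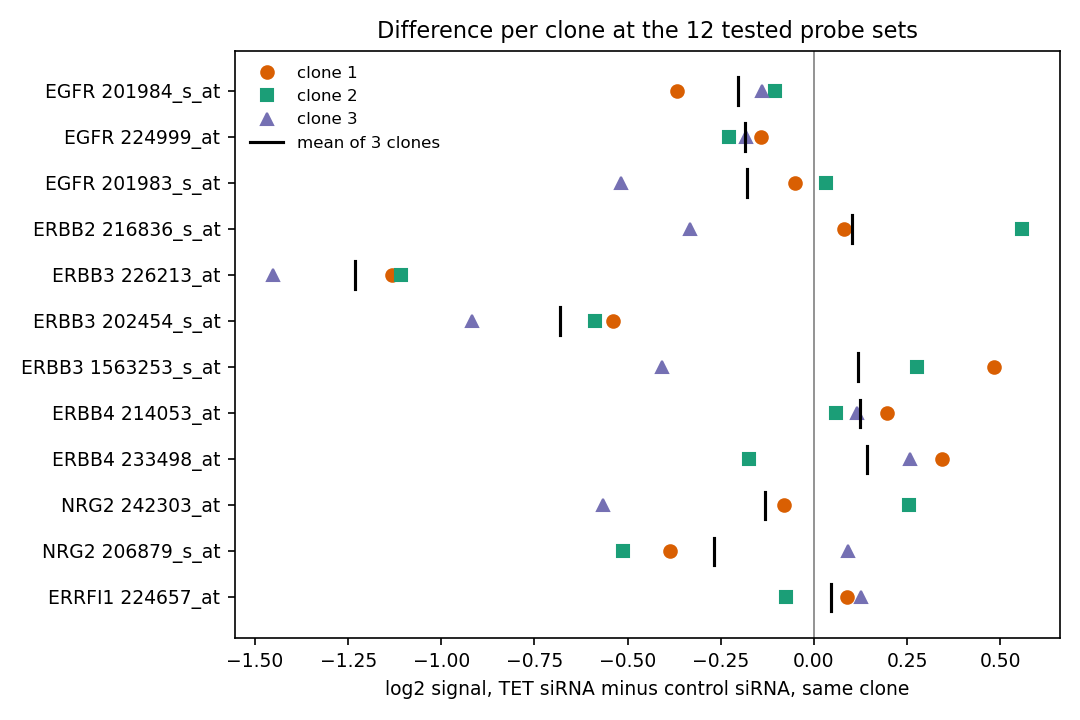
Log2 signal under TET siRNA minus control of the same clone (horizontal axis) at the 12 tested probe sets of the members; symbols are the 3 clones and black bars their mean. ERBB3 226213_at (-1.23) and 202454_s_at (-0.68) stand to the left, and the means of the probe sets of the other genes lie between -0.27 and 0.14.

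Neuregulins are ligands of ERBB3 and ERBB4, made as membrane-bound precursors and released by proteases. NRG2 was the neuregulin bright enough to test. At 242303_at its signal was 215, 264 and 171 under TET siRNA and 227, 222 and 254 under control siRNA, a difference of -0.13 (SE 0.23) with clone 2 above its control. At 206879_s_at the signal was 141, 187 and 195 against 184, 266 and 183, a difference of -0.27 (SE 0.24) with clone 3 above its control. The 2 probe sets thus differ in which clone went the other way.

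NRG4, a ligand of ERBB4, was dim but without overlap between groups. Its only probe set, 242426_at, had signals of 59.1, 46.0 and 62.8 under TET siRNA and 32.6, 27.7 and 22.0 under control siRNA. All are below the brightness limit, and the log2 difference was 1.03 ± 0.42 (SD over 3 clones). With a pseudocount of 36.1 added to each signal it was 0.53. The 6 NRG1 probe sets had geometric means of 14.6 to 76.1 and differences from -1.49 to 1.11. NRG1 208232_x_at had signals of 71.9, 71.7 and 11.2 under TET siRNA against 137.6, 101.8 and 90.9, without overlap, while 208230_s_at was higher under TET siRNA in clones 1 and 2. The NRG1 probe sets thus had no shared direction.

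**Figure D3:**
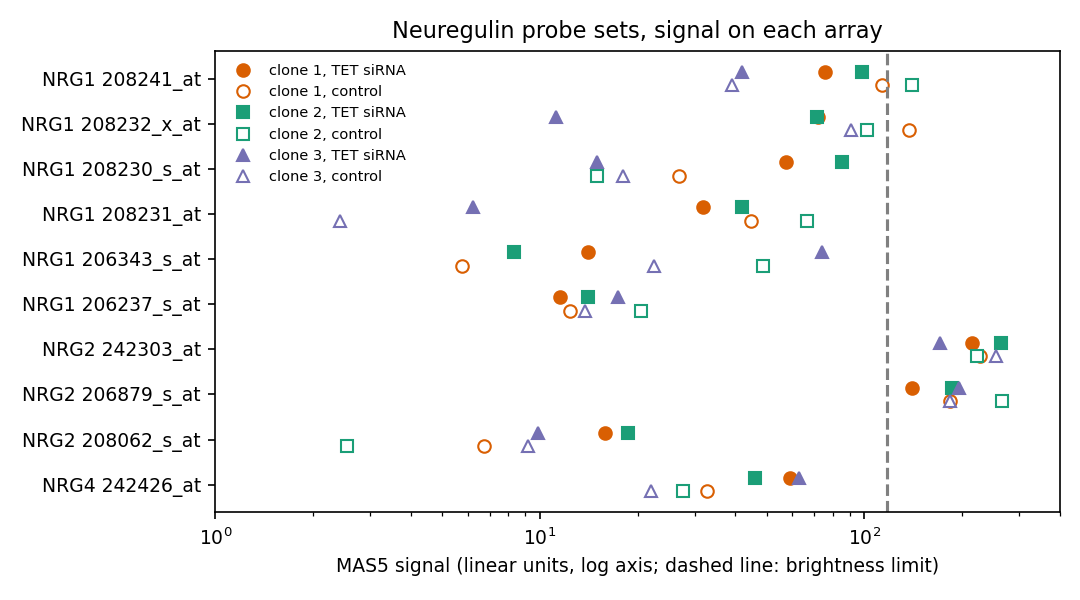
MAS5 signal (horizontal log axis) of the 10 neuregulin probe sets among the members on each of the 6 arrays. Filled symbols stand for TET siRNA and open ones for control, and the dashed line is the brightness limit of 117.2. The 2 brighter NRG2 probe sets lie to the right of the line, the NRG1 ones spread widely, and NRG4 lies between 22.0 and 62.8 with the TET siRNA arrays to the right of the control arrays.

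Counting all members, 6 of 32 probe sets had groups that did not overlap, of which 2 were tested ones. Over the array the same held for 11.4% of all probe sets and 12.7% of the tested ones, and nothing is read from the members' count. Besides ERBB3, NRG4 and NRG1 208232_x_at these were EGFR 211550_at and NRG2 208062_s_at, which had geometric means of 20.3 and 8.79. The median log2 difference was -0.16 over the 12 tested member probe sets and 0.02 over all tested probe sets. Since the members were chosen by such differences, and EGFR and ERBB3 supply 3 of the 12 each, nothing is read from these medians either. The median SD over clones was 0.24 for the tested members and 0.72 for the 20 dim ones.

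Differences between the clones, a measure that the selection of the members did not use, were called at 1 of the 3 tested EGFR probe sets and 1 of the 2 tested ERBB4 probe sets. In limma's moderated F test over the clone terms of the same fit, 2259 of the 27307 tested probe sets (8.27%) had an adjusted p under 0.05, and so did 2 of the 12 member probe sets, a count too small to set apart from that share. EGFR 201984_s_at had a geometric mean signal of 317 in clone 1, 597 in clone 2 and 531 in clone 3 (limma adjusted p = 0.0177). Both arrays of clone 1 lay below the 4 others, at 56.3% of the mean of clones 2 and 3, while clone 3 minus clone 2 was -0.17 on the log2 scale. ERBB4 214053_at had 513 in clone 1, 797 in clone 2 and 845 in clone 3 (limma adjusted p = 0.0196), with clone 1 at 62.5% of the others.

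The other probe sets of the same genes did not pass this test. EGFR 224999_at and 201983_s_at had clone 1 at 82.4 and 80.6% of the others with a limma adjusted p of 0.499 and 0.521, and ERBB4 233498_at had clone 1 at 123% with 0.753. ERBB3 226213_at had clone 1 at 83.0% (limma adjusted p = 0.415), its other tested ones 0.825 and 0.784, and those of ERBB2, NRG2 and ERRFI1 had adjusted p-values of 0.571 to 0.891. Both calls were lost without the filter on dim probe sets (limma adjusted p = 0.0663 for EGFR and 0.0686 for ERBB4) and without limma's trend and robust steps (0.161 and 0.164). Without clone 1 the limma adjusted p was 1 for both. Over the whole array the count was 29 without clone 1, 4349 without clone 2 and 2183 without clone 3.

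**Figure D4:**
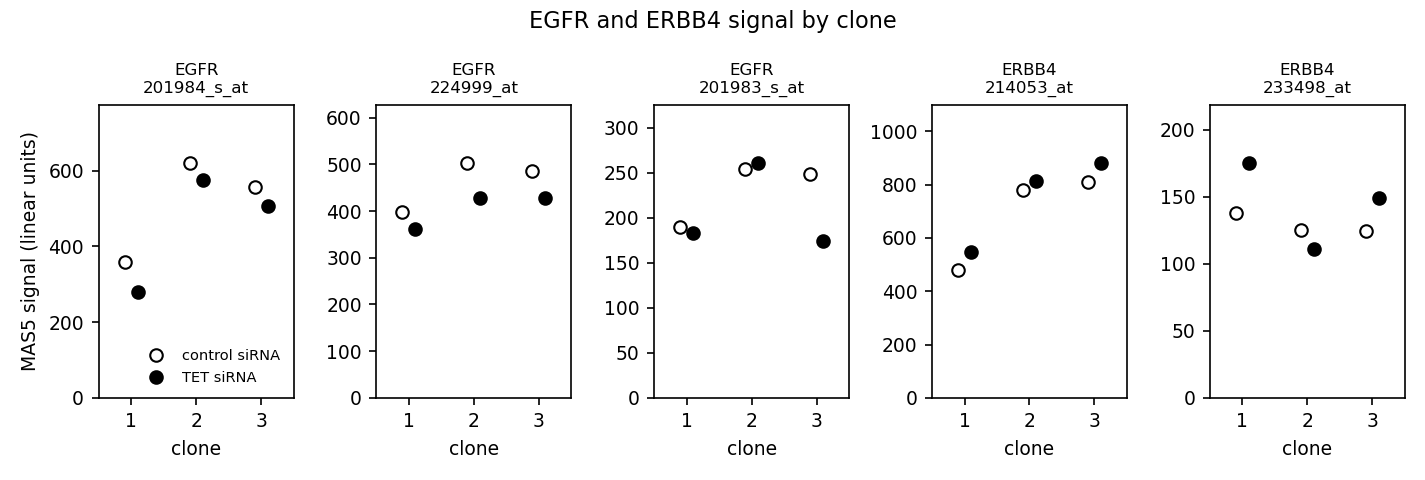
MAS5 signal (vertical axes, linear units from 0) of the 5 tested EGFR and ERBB4 probe sets by clone, open circles for control and filled circles for TET siRNA. Clone 1 is lowest at EGFR 201984_s_at (279 and 360) and ERBB4 214053_at (479 and 549), and it is not lower at ERBB4 233498_at.

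Around the receptors, 112 other genes of the pathway were listed, of which 86 had a tested probe set. Taking a gene at its brightest probe set, 1 of 86 passed as lower in the blocked limma fit and 0 as higher, which is 1.16% against 1.32% of all 12318 genes tested (0.836% lower, 0.479% higher); without the replicate block 0 of 86 passed, against 2 genes on the array (0.0162%). The median log2 difference was 0.04 over the 86 genes and 0.01 over all genes.

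The gene that passed was LRIG1, a transmembrane protein that promotes the ubiquitination and breakdown of ERBB receptors. Its signal at 211596_s_at was 1210, 1530 and 1488 under TET siRNA and 1876, 2220 and 2134 under control siRNA in clones 1, 2 and 3. The groups did not overlap, and each clone was lower, for 67.7% of control on average (log2 difference -0.56, SE 0.09, limma adjusted p = 0.0144). The call was lost without the replicate block (adjusted p = 0.361), when dim probe sets were kept (0.0666), without limma's trend and robust steps (0.321) and without clone 1 (0.0865) or clone 3 (0.104), while the difference stayed between -0.63 and -0.46. Its relatives LRIG2 and LRIG3 had 0.21 and -0.16 at their brightest probe sets and did not pass.

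CBL, the ubiquitin ligase that tags activated EGFR, was looked at after its values were seen, because a probe set other than its brightest passed. All tested probe sets of the listed genes were open to this pick, and 1.03% of tested probe sets on the array passed. At 225234_at the log2 difference was -0.65 (SE 0.13, limma adjusted p = 0.0463, and 0.628 without the replicate block). The brightest, 225231_at, had -0.14 (SE 0.11), 229010_at had -0.62 (SE 0.20) and 243475_at had 0.52 (SE 0.29), so the 4 tested CBL probe sets disagreed in sign.

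The other lists had no gene past the threshold in the blocked fit. Of 8 listed ligands of the EGF family outside the members, among them the neuregulin NRG3, 6 had a probe set of a single gene. Of those 6, 2 were bright enough, HBEGF with -0.10 (SE 0.11) and TGFA with 0.13 (SE 0.18). The 9 genes listed as ligand sheddases and their partners had a median of 0.12, with ADAM9 of smallest p at -0.20 (SE 0.07). The median was 0.03 over 16 receptor adaptors (SHC1 -0.24, SE 0.09), 0.09 over 6 genes of the RAS-ERK core (MAP2K1 -0.10, SE 0.07) and 0.08 over 13 genes of the PI3K-AKT core (AKT2 0.27, SE 0.12). Over 12 immediate early genes, which respond fast to receptor signals, it was -0.03, with the transcription factor EGR1 at 0.34 (SE 0.08, limma adjusted p = 0.061). The 6 genes of the STAT branch had 0.08, with STAT3 at 0.09 (SE 0.09). By clone, 7 of the 86 genes (8.14%) passed the moderated F test in limma, against 10.4% of all genes.

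**Figure D5:**
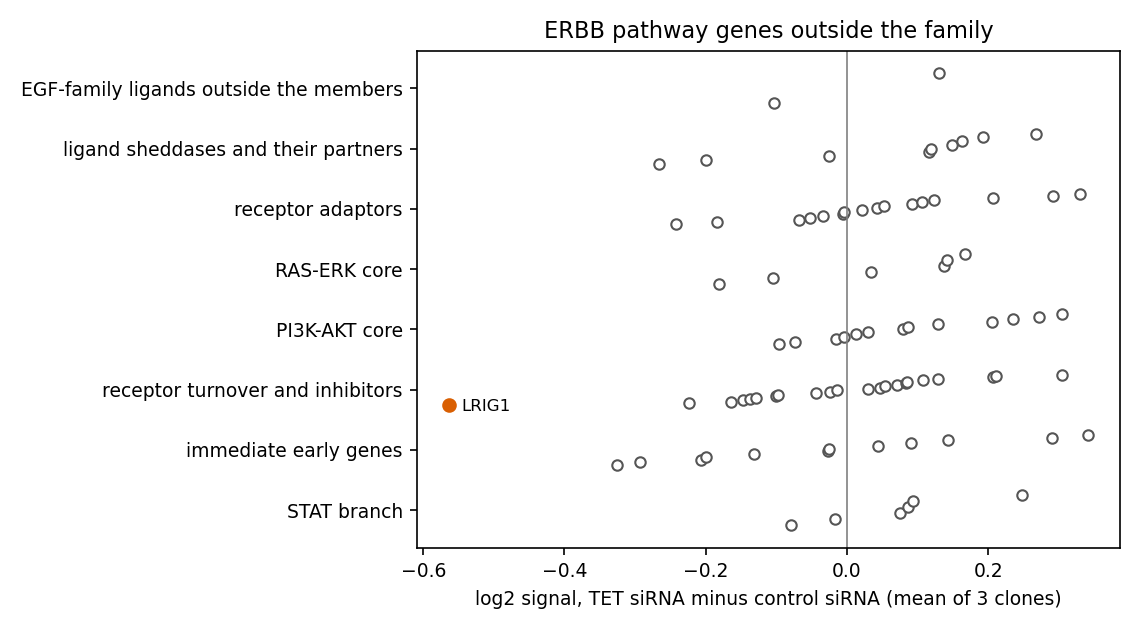
Log2 signal under TET siRNA minus control (horizontal axis, mean of 3 clones) of the 86 tested pathway genes outside the members, by list, each point a gene at its brightest probe set. The filled point is LRIG1 (-0.56), the gene called in the blocked fit, and the others lie between -0.33 and 0.34.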

How the data were processed

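Total RNA of 6 samples was hybridised to one-colour arrays, 1 array a sample, per the labels. The values deposited by the authors are intensities on a linear scale, made with MAS5 per the submitters' processing notes; its version was not among the sources. Every array had a trimmed mean of 1000 (2% cut at each end) and was used without rescaling. Scanner files and detection calls were not used here, and neither were the order and batch of hybridisation.

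Of 54675 probe sets, 62 controls were set aside. Genes come from the platform annotation, with 41091 probe sets of 1 gene, 1801 of several and 11721 of none; RefSeq (GRCh38.p14) held the Entrez ID of 41037, whose current symbol was used. Log2 signals of the upper 50% (27307) were fitted in limma 3.58.1 (R 4.3.3) with trended, robust empirical Bayes, treatment and clone as terms, two-sided, with an adjusted p under 0.05 as threshold; SE comes from this fit. The clone was kept in the fit because the comparison is defined as paired by clone number. The labels name the clone of each array; for clones 1, 2 and 3, the pair's departures from the group means had correlations of 0.493, 0.234 and 0.236, all over 0.1. Between arrays of different clones they ran from -0.372 to 0.219, the highest for TET siRNA clone 2 with control clone 3. These values set clone 1 apart, and the pairing of clones 2 and 3 rests on the labels. Nothing says that the 3 clones were treated on separate days, so p-values measure no more than the spread between these arrays. In the blocked fit that is the spread left after the treatment and clone terms. Without the block it includes the differences between clones.

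The members and lists were chosen with earlier results of these data known. Named are all members, the TET genes and, in each list, up to 4 passing genes by their brightest probe set or else the gene of smallest p, and the 2 genes of most similar pattern for each member, read at its brightest probe set without the suffixes _x_at and _s_at where such a one passed the filter. CBL was added after its values were seen. The steps were also run on simulated data, with normal noise of the size that limma's own fit gave. Such a run cannot tell whether that size holds for these arrays. Plots were drawn with matplotlib 3.10.9.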

Additional observations from a re-analysis of the deposited data

How the results depend on the processing

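With the clone in the fit, the count of 282 probe sets called between TET siRNA and control became 4 with no replicate block, 70 when dim probe sets were kept and 0 without the trend and robust steps of limma (3355 at an unadjusted p under 0.05). It ranged from 63 to 684 with a clone left out, and from 2 to 4 with no replicate block and an array left out. The 2259 probe sets that differed between clones became 847 with no filter and 1 without the trend and robust steps, and 29 to 4349 with a clone left out (29 without clone 1, 4349 without clone 2). Of the pathway genes, 1 became 0 in limma with no replicate block, with no filter or without the trend and robust steps, 2 with the upper 30% of probe sets, and 0 to 2 with a clone or array left out. All 4 bright TET probe sets were called with the clone in the fit; 2 were with no replicate block, 0 without the trend and robust steps, 2 to 3 with a clone left out and 0 to 2 with no block and an array left out, with the log2 differences negative throughout. HBEGF changed sign, to 0.045, with no replicate block and without TET siRNA replicate 3, and did not pass in either. Of 352 recomputed member differences, 327 moved by less than the SD over clones and 25 by more. At both brighter ERBB3 probe sets the groups do not overlap, so a pseudocount or a clone or array left out could not change the sign. With quantile normalization the log2 differences were -1.28 at 226213_at and -0.73 at 202454_s_at. With the clone in the fit, 3 of the 12 tested and 5 of the 20 dim member probe sets changed sign in at least 1 setting; counting also the settings with no replicate block and an array left out, 6 tested and 6 dim ones did. Dim probe sets limit what can be said of NRG1 and NRG4.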

Other observations

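Over the log2 signals of the 6 arrays, the genes whose pattern was most like that of a member were read from the brightest tested probe set of each of 12317 other genes, as a description. For ERBB3 226213_at they were ID4 (Pearson r = 0.994) and RPS6KB1 (0.992), for EGFR 224999_at KISS1R (0.993) and TMTC4 (0.992), and for ERBB4 214053_at MED14 (0.998) and NHSL1 (0.997). For ERBB2 216836_s_at they were STK25 (0.987) and MR1 (0.982), for NRG2 242303_at SMIM29 (0.987) and INTS14 (0.982), and for ERRFI1 224657_at ACBD5 (0.987) and KIF1C (0.984). The 6 arrays share 2 treatments and 3 clones, and for each of the 6 members the highest r was at least 0.987.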
